A study of Homo sapiens with 30 samples.

Results

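The comparison described here sets multi-walled carbon nanotubes (MWCNT) directly against titanium dioxide nanobelts (TiO2), both at 10 ug/ml for 24 h, in human small airway epithelial (SAE) cells. It uses 6 of the 30 arrays of the study, 3 from cultures given MWCNT and 3 from cultures given TiO2, chosen by their labels alone and set against each other without the unexposed controls. Messenger RNA was measured on Affymetrix arrays, and every one of the 11963 genes with a single gene symbol was compared. All groups used the same commercially supplied cells in the supplier's growth medium, to which particles were added directly. The study's other groups at 24 h were unexposed cultures and cultures given either particle at 100 ug/ml. The same 5 conditions were sampled at 1 h, with 3 biological replicates in each of the 10 groups. What a biological replicate was is not given in the labels, so the p values cover the spread between these arrays and no more. The number of donors is not given in the labels either, and a cultured monolayer lacks the other cells of an airway.

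Carbon nanotubes are rolled sheets of carbon, and TiO2 nanobelts are flat crystalline fibres of a metal oxide. Both are long, poorly soluble particles studied for their effects after inhalation. The small airways are lined by basal, secretory and ciliated cells, and particles that reach them can be taken up, stir inflammatory and oxidative stress pathways, or alter the cells' mucous and barrier programmes. Comparing the particles at the same dose asks which transcripts separate the materials.

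Epithelial markers were found in part. Means above the table median of 7.18 were seen for 5 of 9 simple epithelial, 6 of 13 basal and 3 of 15 secretory cell markers. The keratin KRT18 stood at 12.75 ± 0.04 (SD, n = 3, log2 expression) with MWCNT and 12.81 ± 0.05 with TiO2, and KRT7 at 12.16 ± 0.16 and 12.19 ± 0.06. The basal keratin KRT14 was at 3.88 ± 0.24 and 4.10 ± 0.18, below the table median, as were KRT19 at 5.85 ± 0.24 and 5.69 ± 0.09 and the surface protein EPCAM at 6.84 ± 0.18 and 6.65 ± 0.17. None of the 8 ciliated cell markers measured had a mean above that median, and neither did 13 of 14 immune, 9 of 10 endothelial and 7 of 10 fibroblast markers. Of 11 alveolar markers, however, 5 did, against the 6 of 13 basal markers. The mean over the alveolar list was 7.21 to 7.28 on MWCNT arrays and 7.23 to 7.31 on TiO2 arrays. Over the basal list it was 7.27 to 7.39 and 7.25 to 7.36. The mean over the endothelial markers ran from 5.74 to 5.81 on the MWCNT arrays and from 5.85 to 5.91 on the TiO2 arrays. For immune markers the ranges overlapped, at 5.36 to 5.56 and 5.50 to 5.60, as they did for fibroblast markers, at 5.31 to 5.47 and 5.39 to 5.52. In bulk samples, a change in the number of cells of a type and a change in RNA per cell cannot be told apart.

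At 10 ug/ml for 24 h the differences between the particles that passed the test were small. A set of 584 genes differed (4.88% of all genes at an adjusted p under 0.05 in limma), 245 higher with MWCNT (2.05%) and 339 lower (2.83%). The median fold among them was 1.25. The largest was 1.42-fold among genes higher with MWCNT and 1.58-fold among those lower, and 5 genes exceeded 1.5-fold. Without adjustment 2906 genes had p under 0.05. The 3 arrays of one particle lay wholly above or below those of the other for 573 of the 584, against 3461 of all genes (28.9%). With 3 arrays in each group, the lowest two-sided p of an exact permutation test is 0.1, so these calls rest on the variance limma pools over genes and groups. The count moved strongly with single arrays: it was 20 without MWCNT replicate 1, 798 without MWCNT replicate 2, 148 without MWCNT replicate 3, and 335, 343 and 138 without TiO2 replicates 1, 2 and 3. It was 7 when only the 6 arrays were fitted. It was 206 when the arrays were aligned again by cyclic loess, which removes trends with brightness, and genes higher with MWCNT were then 20.9% of the calls in place of 42.0%. When arrays were centred on their brighter genes, that share was 3.06% of 784 calls.

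The direction of a difference went with how brightly a gene was expressed. Of the 245 genes higher with MWCNT, 216 (88.2%) had a mean above the table median, and of the 339 lower ones 287 (84.7%) had a mean below it. Across all genes the median difference, MWCNT minus TiO2, was 0.06 on the log2 scale for the 6923 genes above the table median and -0.06 for the 5040 below it. By deciles of expression level it ran from -0.10 in decile 2 to 0.09 in decile 7. A tilt of the same shape was seen on the arrays at 100 ug/ml, which share no sample with these, from -0.09 in decile 2 to 0.09 in decile 7. In the 1 h contrast it ran from -0.06 to 0.03 in the same deciles. Among genes below the median 5.69% were called lower with MWCNT and 0.575% higher. Above it, 3.12% were called higher and 0.751% lower.

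**Figure D1:**
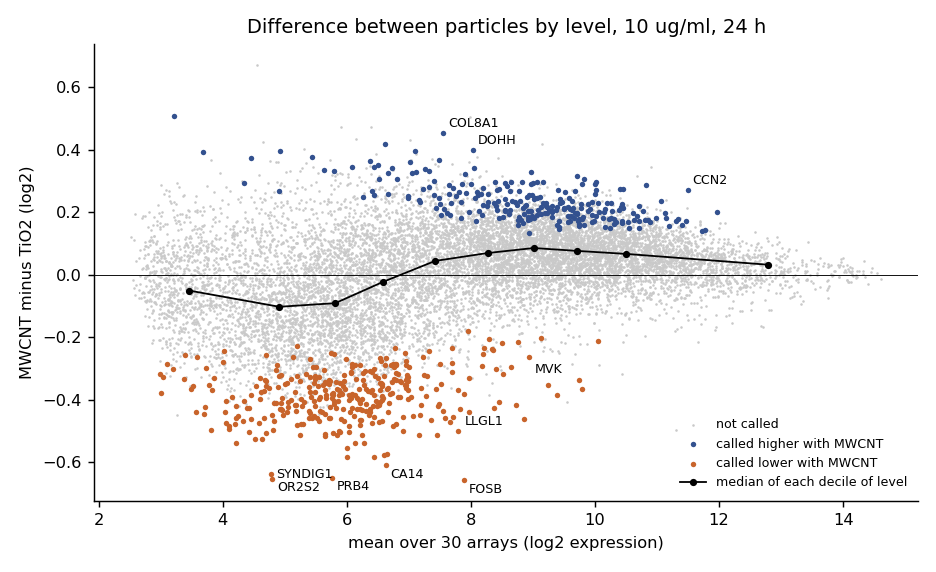
Each point is a gene, placed by its mean over the 30 arrays (x axis, log2 expression) and by the difference of its MWCNT and TiO2 group means (y axis, log2), at 10 ug/ml and 24 h. Blue points are the 245 genes called higher with MWCNT, orange points the 339 called lower, and the black line joins the median differences of the deciles, which pass from below 0 among dim genes to above 0 among bright ones.

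The tilt was present on the 3 TiO2 arrays and on MWCNT replicates 1 and 3. On MWCNT replicate 2, dim and bright genes both lay slightly above 0. For dim genes (deciles 2 to 4), the median deviation from the mean of all 30 arrays was -0.06, 0.02 and -0.07 on the 3 MWCNT arrays, and 0.05, 0.04 and 0.05 on the 3 TiO2 arrays. For bright genes (deciles 7 to 9) it was 0.07, 0.03 and 0.03 with MWCNT, and -0.03, -0.02 and -0.02 with TiO2. The groups did not overlap in either class. Unexposed arrays at 24 h ranged from -0.04 to -0.02 in dim genes and from 0.02 to 0.07 in bright genes, so in both classes they lay on the MWCNT side of the TiO2 arrays. RNA quality gave no such gap: the 3' minus 5' signal of GAPDH was 0.04 to 0.07 with MWCNT and 0.05 to 0.10 with TiO2, and that of ACTB 0.40 to 0.54 and 0.40 to 0.59. Whether the tilt comes from the cells or from the arrays was not tested.

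**Figure D2:**
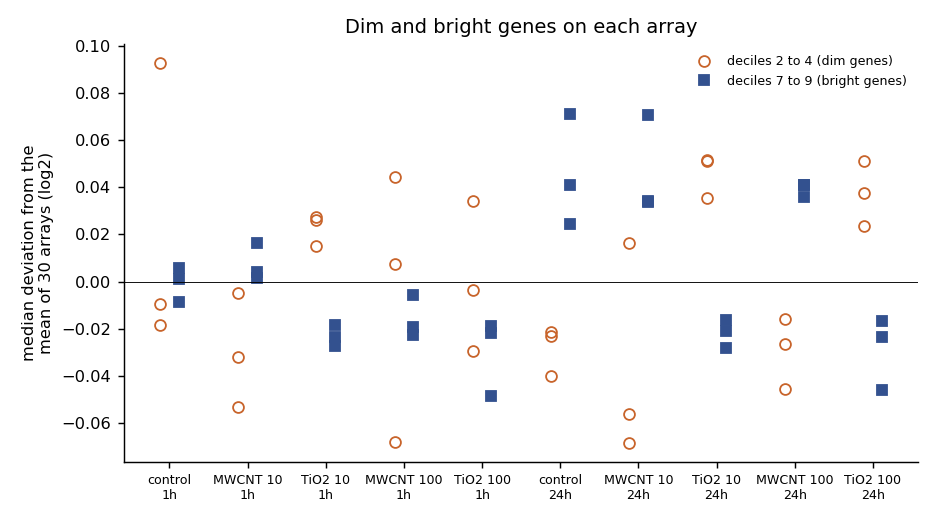
Each array's median deviation from the mean of the 30 arrays (y axis, log2) is shown for dim genes (open circles, deciles 2 to 4 of expression level) and bright genes (filled squares, deciles 7 to 9), for the 10 groups along the x axis. At 24 h the TiO2 arrays of both doses have dim genes above 0 and bright genes below it, while the controls show the opposite.

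Among genes higher with MWCNT that had no overlap and a higher group mean above the table median, COL8A1, a short-chain collagen, differed by the most. It read 7.27, 7.53 and 7.73 on the MWCNT arrays and 7.03, 7.07 and 7.07 on the TiO2 arrays, a difference of 0.45 ± 0.12 (SE, adjusted p = 0.0274). All 3 MWCNT values were above the TiO2 values, though the lowest by a smaller margin. Its mean difference at 100 ug/ml was 0.03. DOHH, the hydroxylase that completes the hypusine residue of the translation factor eIF5A, read 8.29, 8.13 and 8.17 against 7.88, 7.67 and 7.84. That difference of 0.40 ± 0.07 (adjusted p = 0.00738) was accompanied by 0.24 at 100 ug/ml (adjusted p = 0.0319). ELP3, the catalytic subunit of the Elongator complex that modifies transfer RNA, had tight groups. Its MWCNT values were 8.44, 8.55 and 8.50, its TiO2 values 8.23, 8.14 and 8.23, and it kept its call in 16 of 18 alternative settings.

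The other 12 of the 15 largest such differences lay between 0.30 and 0.37 on the log2 scale. They included the GATA-type repressor TRPS1 (0.37 ± 0.09, adjusted p = 0.0274), the mitochondrial enzyme of GABA breakdown ALDH5A1 (0.34 ± 0.10), the recombination protein RAD54B (0.33 ± 0.08) and the ribosome assembly factor URB1 (0.33 ± 0.09). Signalling and trafficking were represented by HHAT, which attaches palmitate to Hedgehog proteins (0.33 ± 0.09), the protein kinase A catalytic subunit PRKACB (0.31 ± 0.08) and the ARF exchange factor ARFGEF1 (0.32 ± 0.08). The rest were MFHAS1 and TMEM242 (0.34 and 0.32), the polarity scaffold PALS2 (0.30), the mitochondrial arginase ARG2 (0.30) and the autophagy kinase ULK2 (0.30). ARG2 differed by more at 100 ug/ml, at 0.58. Of these 15 genes, 8 were also called higher with MWCNT at 100 ug/ml, where 7.7% of all genes were. After cyclic loess only DOHH and ELP3 of the 15 passed, and without MWCNT replicate 1 only COL8A1 and ELP3 did.

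Among called genes, those lower with MWCNT differed by more, with a median of -0.38 over the 339 against 0.22 over the 245. Both medians are over genes chosen by the test, which asks a larger difference where the error is larger. Over all genes the medians were 0.06 above the table median and -0.06 below it. The polarity protein LLGL1 read 7.65, 7.92 and 7.67 with MWCNT and 8.18, 8.20 and 8.16 with TiO2. Its difference of -0.43 ± 0.07 (adjusted p = 0.00263) kept its call in 16 of 19 settings, but a second probe set, also above the table median, differed by -0.02. The TiO2 arrays lay close together and the MWCNT arrays all below them. DMBT1, a secreted glycoprotein of mucosal defence, read 6.91, 7.05 and 6.93 with MWCNT and 7.38, 7.54 and 7.51 with TiO2. It differed by -0.51 ± 0.09 (adjusted p = 0.00738) and, on the separate arrays at 100 ug/ml, by -0.47 (adjusted p = 0.00283). B3GNT4, a glycosyltransferase that extends lactosamine chains, differed by -0.51 ± 0.11 (adjusted p = 0.0118), from 7.10, 7.46 and 7.33 to 7.87, 7.76 and 7.80.

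The remaining 12 of the 15 largest lower genes differed by -0.50 to -0.44. Among them were the germ cell RNA-binding protein YBX2 (-0.50 ± 0.13), TAC3, the precursor of neurokinin B (-0.50 ± 0.13), and VIPR1, a receptor for vasoactive intestinal peptide (-0.48 ± 0.13). MLPH, which tethers secretory organelles to myosin, differed by -0.47 ± 0.11 (adjusted p = 0.0171), the signalling ligand WNT6 by -0.46 ± 0.12 and the fucosyltransferase FUT6 by -0.45 ± 0.10. The list further held the hepcidin repressor TMPRSS6 (-0.46), the transporters SLC22A14 (-0.46) and SLC7A8 (-0.44), the drug-oxidising enzyme CYP2D6 (-0.45), CCNP (-0.44) and the read-through transcript DTX2P1-UPK3BP1-PMS2P11 (-0.46). That last locus has near-identical copies, so its signal is uncertain. The same holds for FUT6 and CYP2D6, which have close relatives. At 100 ug/ml 8 of the 15 were also called lower, against 4.55% of all genes, and 14 of the 15, all but VIPR1, passed after cyclic loess. Without MWCNT replicate 1, LLGL1 alone of the 15 did.

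**Figure D3:**
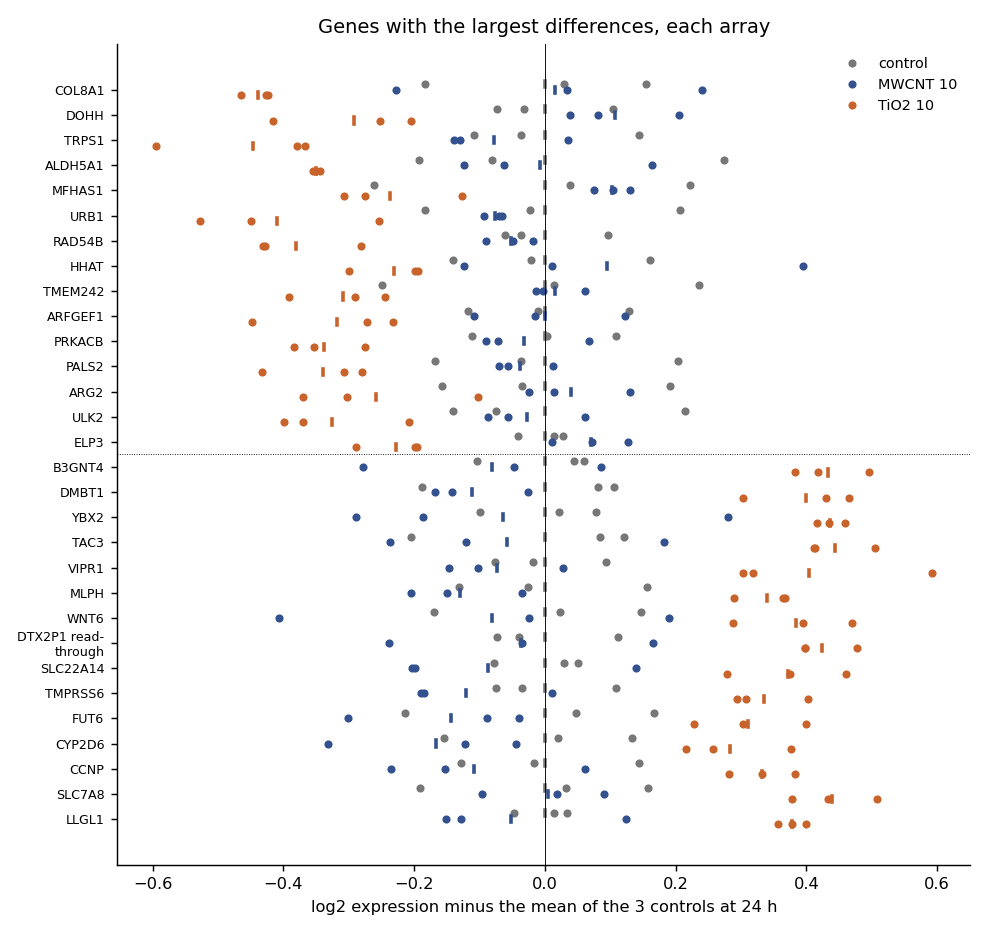
The 15 genes with the largest differences in each direction are shown for every array of the 3 groups at 24 h, as log2 expression minus the mean of the 3 controls (x axis), with short bars at group means. Genes above the dotted line are higher with MWCNT, and in most the TiO2 arrays (orange) lie away from 0 while MWCNT (blue) and control (grey) arrays mix around it.

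The unexposed cultures lay nearer to the MWCNT cultures than to the TiO2 cultures at these genes. These comparisons share the TiO2 or MWCNT arrays with the direct contrast, and the same control arrays with each other, so they add no separate evidence. Over the 245 genes higher with MWCNT, the median difference from control was 0.02 for MWCNT and -0.20 for TiO2. Over the 339 lower genes it was -0.08 and 0.30. LLGL1, for example, differed from control by -0.05 with MWCNT (adjusted p = 1) and by 0.38 with TiO2 (adjusted p = 0.0137). In all, limma called 0 genes in MWCNT against control (0%, with 389 at an unadjusted p under 0.05) and 724 in TiO2 against control (6.05%). The first control replicate had the largest ACTB 3' minus 5' signal of the 30 arrays, at 0.86, and the largest root mean square deviation from its group, at 0.14. Left out of the fit, it gave 756 calls between the particles.

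All 5 genes beyond 1.5-fold were lower with MWCNT and had both group means below the table median, so they fell outside the rule for the genes above and were picked out after their values were seen. FOSB, a component of the AP-1 transcription factor that is switched on within minutes of growth stimuli, read 5.84, 5.66 and 5.63 with MWCNT and 6.32, 6.35 and 6.43 with TiO2. The 1.58-fold difference (-0.66 ± 0.14, adjusted p = 0.0156) was -0.14 at 100 ug/ml and -0.05 at 1 h. The salivary proline-rich protein PRB4 had the smallest adjusted p of all, with -0.65 ± 0.08 (adjusted p = 0.000755). PRB4 shares sequence with its relatives, so its source is uncertain. OR2S2 is an olfactory receptor, SYNDIG1 a synaptic membrane protein and CA14 a membrane carbonic anhydrase, and they differed by -0.65, -0.64 and -0.61.

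Secretory and mucosal genes formed the list with the lowest median. Of 15 measured, 4 were lower with MWCNT and none higher, 11 did not pass, and the median difference was -0.23 against 0.03 over all genes. The gel-forming mucin MUC5AC read 6.26, 6.54 and 6.29 with MWCNT and 7.07, 6.83 and 6.91 with TiO2 (-0.58 ± 0.13, adjusted p = 0.0166). The arrays at 100 ug/ml gave -0.63 (adjusted p = 0.00306). Its other 3 probe sets differed by 0.06, -0.15 and -0.06 at 10 ug/ml, so the tested one stood alone. AGR2, a disulfide isomerase needed for mucin folding, differed by -0.49 ± 0.12, the club cell oxidase CYP2F1 by -0.45 ± 0.09 and the immunoglobulin transporter PIGR by -0.39 ± 0.10. The mean over the list was 5.95 to 6.10 on MWCNT arrays, 6.21 to 6.24 on TiO2 arrays and 6.05 to 6.06 on controls. Of the 15 genes 12 were below the table median, where 5.69% of all genes were called lower.

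Squamous differentiation genes, which build the cornified envelope and its proteases, had 5 of 27 members lower with MWCNT and none higher, with 22 not passing and a median of -0.13. These were the kallikrein proteases KLK7 (-0.47 ± 0.13) and KLK10 (-0.34 ± 0.09), the transglutaminase TGM3 (-0.44 ± 0.12), the antimicrobial S100A7 (-0.34 ± 0.09) and the envelope precursor SPRR1A (-0.34 ± 0.10). TGM3 read 5.16, 5.45 and 5.41 with MWCNT and 5.92, 5.77 and 5.65 with TiO2. After cyclic loess none of the 5 passed. Second probe sets differed by -0.28 for KLK10 and -0.05 for SPRR1A. In this list 24 of 27 members were below the table median, where 5.69% of all genes were called lower with MWCNT (2.83% of genes at all levels). Genes not tied to airway function gave counts of the same kind. Of 39 olfactory receptors, a list added after the data were seen, 6 were lower with MWCNT and none higher. Their median was -0.11, and all 39 were below the table median, so the same 5.69% applies. Among markers of other tissues, 1 of 14 immune, 1 of 10 endothelial and 1 of 11 alveolar members were lower with MWCNT. These were CD3E of T cells (-0.41), EMCN of endothelium (-0.31) and the water channel AQP5 of alveolar and glandular cells (-0.43). None was called higher, and none of 10 fibroblast markers passed. Positive and negative differences numbered 4 and 10 in the immune list, 5 and 5 in the endothelial and 5 and 6 in the alveolar.

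Genes for matrix breakdown went in both directions. ADAM17, the sheddase that releases EGF receptor ligands, was higher with MWCNT by 0.20 ± 0.06 (adjusted p = 0.0428), a call kept in 6 of 19 settings. Its other 2 probe sets differed by 0.03 and 0.10. The gelatinase MMP9 was lower (-0.36 ± 0.09, adjusted p = 0.0232), as was the collagenase MMP1 (-0.30 ± 0.08). Both were below the table median, MMP9 at 6.41 with MWCNT and 6.76 with TiO2. MMP1, at 3.10 and 3.41, was in the lowest decile of expression level. After cyclic loess MMP9 passed, while MMP1 and ADAM17 did not. The other 15 of 18 members did not pass, and over all genes 2.05% were called higher and 2.83% lower. Of 23 genes of the extracellular matrix and the TGF-beta response none passed, and IGFBP3, the growth factor carrier with the largest difference, stood at 0.34 ± 0.11 (adjusted p = 0.0612). COL1A1 of fibroblasts was at -0.33 (adjusted p = 0.0513), while its other probe sets differed by 0.13, 0.15 and 0.09.

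Stress pathways gave few calls. SLC7A11, the cystine importer that feeds glutathione synthesis and is a target of both NRF2 and ATF4, was higher with MWCNT. It read 11.13, 11.22 and 11.20 against 10.92, 11.05 and 10.87, a difference of 0.24 ± 0.06 (adjusted p = 0.0272), and a second bright probe set differed by 0.27. It was the only call among 25 NRF2 genes, whose median was -0.02, and among 15 ATF4 genes, whose median was 0.07. Of 15 genes of the unfolded protein response, the ER chaperone DNAJB9 (0.30 ± 0.08) and SEL1L, a part of the ER degradation machinery (0.21 ± 0.06), were higher with MWCNT. The other 13 did not pass. In these lists, in that order, 21 of 25, 15 of 15 and 14 of 15 members had means above the table median. At that level 3.12% of all genes were called higher with MWCNT, against 2.05% at all levels. The call was kept in 5 of 19 alternative settings for DNAJB9 and in 7 of 19 each for SEL1L and SLC7A11. After cyclic loess none of these genes passed. With 100 ug/ml, SLC7A11 differed by 0.29 and SEL1L by 0.24.

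Metallothioneins, which bind zinc and copper, gave no call. Among 8 members with the zinc exporter SLC30A1, the median was -0.13 and the groups did not overlap for 5, as they did not for 28.9% of all genes. MT1F was at 11.37, 11.57 and 11.51 with MWCNT and 11.60, 11.75 and 11.75 with TiO2 (-0.21 ± 0.12, adjusted p = 0.275). These genes cross-hybridise within their family. On the arrays at 100 ug/ml the list's median was -0.52 and 6 of 8 were called lower, against 4.55% of all genes. None of 11 heat shock genes, 16 aminoacyl-tRNA synthetases, 25 inflammatory and NF-kB genes, 28 interferon genes or 16 p53 targets passed. The largest differences in these lists were HSPA4L at 0.24, IARS1 at 0.12, the chemokine CCL20 at 0.43 ± 0.24, IFIT2 at -0.31 and PLK3 at -0.24.

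Few growth and housekeeping genes passed, which does not show that these programmes were alike. No gene passed among 30 of mitosis, 27 of DNA replication, 56 of oxidative phosphorylation, 29 of splicing, 26 of the proteasome, 33 of lysosomes or 29 of hypoxia and glycolysis, and their medians lay between 0.01 and 0.06. Most members were above the table median, where 3.12% of all genes were called higher and 0.751% lower. In DNA replication 22 differences were positive and 5 negative, and the groups did not overlap for 11, against 28.9% of all genes. At 100 ug/ml 5 of the 27 were called higher and 0 lower, against 7.7% and 4.55% of all genes. The proliferation marker MKI67 was at 10.57 ± 0.04 with MWCNT and 10.40 ± 0.01 with TiO2 (0.17 ± 0.06, adjusted p = 0.0719), and the replication factor MCM10 at 0.20 ± 0.07. Other largest members were SDHD of the respiratory chain at -0.18, RBM6 at 0.22, PSMD14 at 0.14, the proton pump subunit ATP6V1B2 at 0.16 and EGLN3 at -0.18. Of 52 cytosolic ribosomal protein genes, RPLP2 was lower with MWCNT (-0.32 ± 0.08), on a probe set with a mean of 7.24 over the 30 arrays, and the list's median was 0.01. Of 17 cholesterol genes, the mevalonate kinase MVK was lower (-0.26 ± 0.06, adjusted p = 0.0217), but its other probe sets differed by 0.10 and 0.03.

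Of the 231 numbered zinc finger genes, mostly repressors of transcription, 7 were higher with MWCNT and 5 lower, near the shares over all genes of 2.05% and 2.83%, and the median was 0.08. ZNF365 (0.33 ± 0.08) and ZNF227 (0.29 ± 0.08) were higher, and ZNF528 (-0.48 ± 0.12), ZNF154 (-0.47 ± 0.13), ZNF835 (-0.45 ± 0.11) and ZNF280A (-0.44 ± 0.09) were lower. Basal, simple epithelial, ciliated and junction lists had no member past the test. Their largest differences were KRT14 at -0.22, EPCAM at 0.19, DNAI1 at -0.21 and the adhesion protein CDH1 at 0.17.

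**Figure D4:**
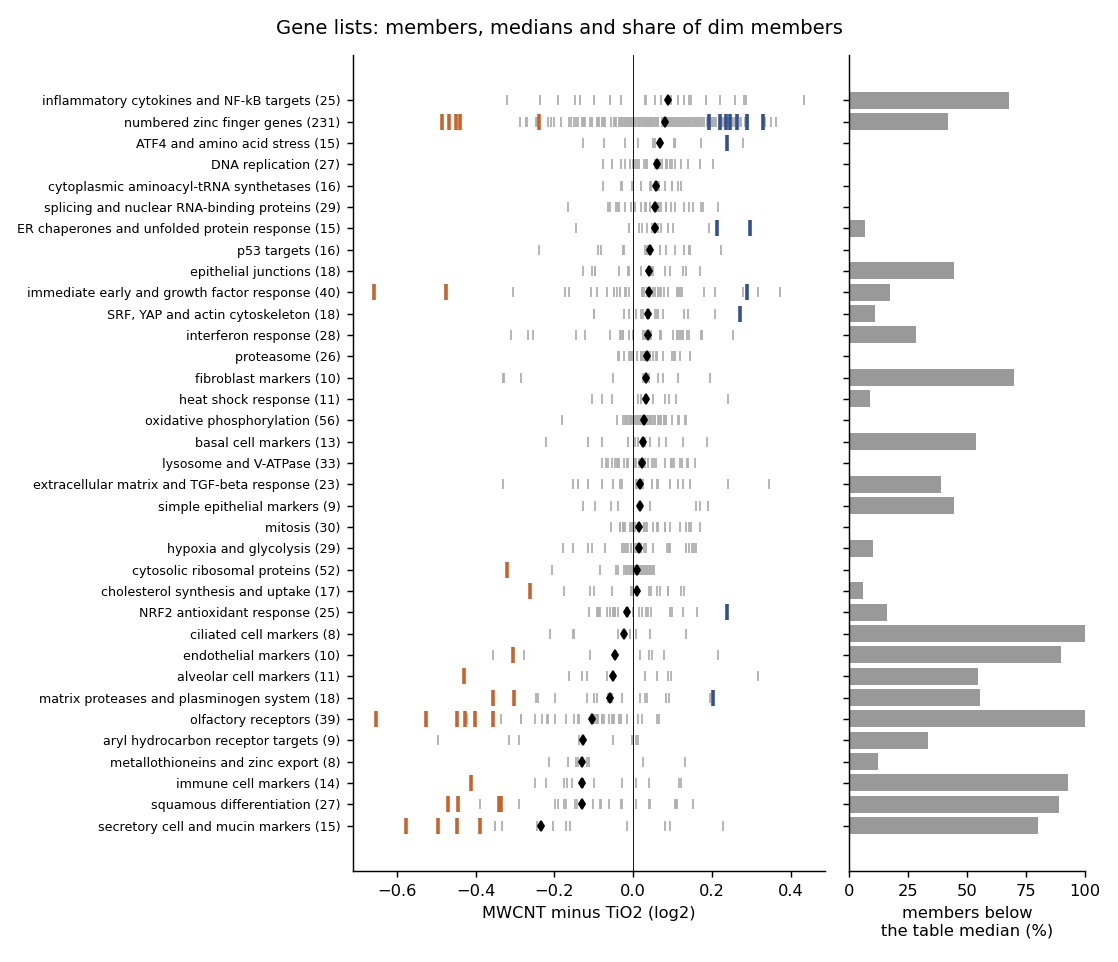
Ticks on the left show each member of a gene list by its MWCNT minus TiO2 difference at 10 ug/ml and 24 h (x axis, log2), with called members in blue (higher) or orange (lower), a diamond at the list's median, and the number of members measured after each name. Bars on the right give the percent of members below the table median, and the lists with the lowest medians mostly have a high share of them.

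Probe sets not used for the test were compared with the tested ones for direction. Among called genes with a second set above the table median, the 66 higher genes had a median of 0.21 on the tested set and 0.11 on the others, with the same sign in 62. The 19 lower genes had a median of -0.32 on the tested set and -0.02 on the others, with the same sign in 10. Of all genes above the table median, 75.7% had a positive difference. That tilt moves both counts, in opposite ways for higher and lower genes, and its part in them was not tested. Named called genes whose bright second set was near 0 were LLGL1 (-0.02), DTX2P1-UPK3BP1-PMS2P11 (-0.02) and ADAM17 (0.03). The bright other sets of MVK had the other sign. For ULK2 the bright set at rank 3 by level also did (-0.10), while that at rank 2 was at 0.18. Second sets below the table median are not in these counts. Among them, those of DOHH, URB1, WNT6, CYP2D6, ALDH5A1, MUC5AC and RPLP2 had the other sign from the tested set. The fucosyltransferase FUT6 had a second set at -0.44.

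Some genes of the growth factor response differed between the particles by dose. Of 40 immediate early and growth factor genes, DUSP5, a phosphatase that shuts off nuclear ERK, was higher with MWCNT at 10 ug/ml by 0.29 ± 0.08 (adjusted p = 0.0382). The early factors FOSB and EGR4 (-0.48 ± 0.11, adjusted p = 0.0170) were lower, and the other 37 did not pass. These counts of 1 higher and 2 lower stand beside 2.05% and 2.83% of all genes. FOSB, EGR4 and DUSP5 had both group means below the table median, and the second probe set of EGR4 differed by -0.16. In the 100 ug/ml contrast 22 of the 40 were lower with MWCNT and 1 higher, against 4.55% and 7.7% of all genes. A direct test of whether the particle difference at 10 differed from that at 100 called 34 genes (0.284%), and 7 of them were in this list, whose other 33 members were not called for it. The count was 21 without TiO2 replicate 3 at 10 ug/ml. In all 34 the difference was smaller in size at 10 ug/ml, and all 34 were called at 100 ug/ml, 32 of them lower with MWCNT. The range at 10 ug/ml was -0.20 to 0.37, and at 100 ug/ml it was -1.33 to 0.82.

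CCN2 was the only gene called in opposite directions at the 2 doses. It encodes a secreted matrix protein and is a well-known target of YAP, a coactivator that responds to cell shape and binds DNA through TEAD factors. At 10 ug/ml it read 9.31, 9.48 and 9.42 with MWCNT and 9.23, 9.07 and 9.10 with TiO2. The MWCNT values were all higher, by 0.27 ± 0.07 on average (adjusted p = 0.0375), a call kept in 7 of 18 settings. At 100 ug/ml the group means were 9.05 ± 0.15 with MWCNT and 9.55 ± 0.13 with TiO2, a difference of -0.50 ± 0.07 (adjusted p = 0.000169). The contrast between the doses was 0.78 ± 0.10 (adjusted p = 0.000203). Controls at 24 h were at 9.27 ± 0.15, between the groups at both doses.

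The bases before the CCN2 start site are shown because they hold the motif through which YAP's DNA partners act. This is the strand of the gene, the 250 bases before the start (RefSeq, GRCh38.p14, chr6:131951373-131951622, minus strand), with each GGAATG, a form of the TEAD site, in capitals.
CCN2: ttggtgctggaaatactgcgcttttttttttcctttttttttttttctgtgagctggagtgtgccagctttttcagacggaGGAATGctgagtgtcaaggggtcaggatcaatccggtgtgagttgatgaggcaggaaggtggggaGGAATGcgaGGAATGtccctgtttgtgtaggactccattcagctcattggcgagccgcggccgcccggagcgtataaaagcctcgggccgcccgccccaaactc
The motif, searched on both strands, begins 169, 104 and 95 bases before the start. At least 1 copy is found in 11.9% of 27305 promoters of the same length, and 3 or more in 26 of them (0.0952%). A match describes the letters of this window and does not show that a factor was bound. Of the 18 SRF, YAP and actin genes measured, CCN2 alone passed at 10 ug/ml, and the median of the list was 0.04.

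Of the 34 genes, 2 besides CCN2 were called at 10 ug/ml, both with a larger difference in the same direction at 100 ug/ml. The calcium-gated chloride channel ANO2 was at 0.25 (adjusted p = 0.0320) against 0.82, and VGLL4, a cofactor of TEAD factors, at -0.20 (adjusted p = 0.0274) against -0.63. The other 31 did not pass at 10 ug/ml. IER3, an early survival factor, read 7.50, 7.59 and 7.50 with MWCNT and 7.50, 7.59 and 7.44 with TiO2, a difference of 0.02 ± 0.08, against -1.33 at 100 ug/ml. The ERK-dependent transcription factor ETV5 was at -0.04 ± 0.10 against -1.31, the efflux pump ABCC3 at -0.09 ± 0.05 against -1.01, LBH at 0.10 ± 0.08 against -0.80 and the matrix protein TGFBI at 0.14 ± 0.05 against -0.39. On its second probe set the dose contrast of ETV5 was 0.19 in place of 1.26 and no longer passed (adjusted p = 0.995), and that of ABCC3 was 0.47 in place of 0.92. DUSP6, a feedback phosphatase of ERK, read 6.18, 6.27 and 6.09 with MWCNT and 5.82, 5.79 and 5.82 with TiO2, with no overlap (0.37 ± 0.13, adjusted p = 0.0920), and SPRED2, an inhibitor of the same pathway, was at 0.21 ± 0.08 (adjusted p = 0.137). They differed at 100 ug/ml by -0.89 and -0.69. JUNB, a further AP-1 subunit, had MWCNT values of 6.18, 6.76 and 6.86 around TiO2 values of 6.33, 6.27 and 6.25. DUSP6, SPRED2 and JUNB were named after their values were seen.

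**Figure D5:**
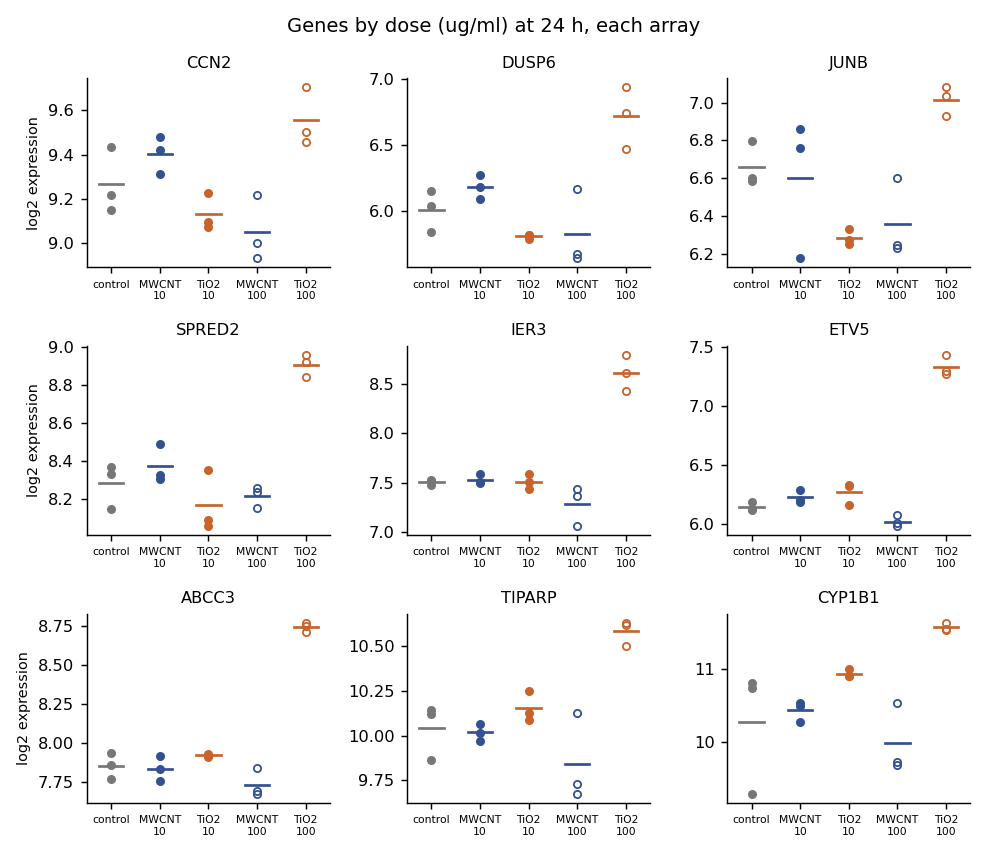
Each panel shows 1 gene in the 5 groups at 24 h (x axis, particle and dose in ug/ml) by log2 expression (y axis, a separate range per panel), with a point per array and a line at the group mean. The TiO2 100 arrays stand above the others in most panels. At 10 ug/ml the MWCNT and TiO2 points separate the other way for CCN2 and DUSP6, and the same way for CYP1B1 and, narrowly, TIPARP. In the other panels they overlap.

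Genes driven by the aryl hydrocarbon receptor, a sensor of planar aromatic compounds, gave no call here. Over the 9 measured the median was -0.13, with 7 negative. It was -0.29 at 100 ug/ml, where 4 were called lower against 4.55% of all genes, and -0.23 at 1 h. CYP1B1, an oxidase of such compounds, read 10.28, 10.54 and 10.49 with MWCNT and 10.90, 10.999 and 10.90 with TiO2. The groups did not overlap, yet the difference of -0.50 ± 0.24 had an adjusted p of 0.206. The error of CYP1B1 is shared by all 10 groups, and its controls at 24 h read 9.30, 10.81 and 10.74, the first far below the others. Its probe sets at ranks 2 and 3 by level differed by -0.47 and -0.59. The 100 ug/ml arrays gave -1.57 and the 1 h arrays -1.09. TIPARP, the receptor's feedback inhibitor, was at -0.14 ± 0.08, and its contrast between the doses was 0.61 ± 0.12 (adjusted p = 0.0117). CYP1A1, the receptor's classic target, was at 0.01.

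The called genes were followed on the arrays of the higher dose and of the earlier time, which share no sample with this contrast. Of the 584 genes, 560 (95.9%) had the same sign at 100 ug/ml, where 75.2% of all genes did. The 115 genes called higher at both doses were 46.9% of those at 10 and 12.5% of those at 100, and the 138 called lower at both were 40.7% and 25.4%. Their medians at 100 ug/ml were 0.17 for the genes higher at 10 and -0.25 for the lower ones, against 0.22 and -0.38 at 10. At 1 h the same sign was seen in 495 (84.8%, against 66.0% of all genes), with medians of 0.04 and -0.13. The tilt with expression level present in all of these contrasts moves such shares as well, and its part in them was not tested.

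Whether the particle difference changed between 1 h and 24 h was tested for each gene. At 1 h a single gene, TIPARP, was called between the particles, lower with MWCNT by -0.82 (adjusted p = 6.42e-06). The test of the change between the times called 0 genes in limma, its lowest adjusted p being 0.0569, while 927 genes had an unadjusted p under 0.05. With array weights it called 11 genes, and with a trended, robust variance 1. A lack of calls does not show that the times were alike.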

How the data were processed

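The deposited values are log2 expression per probe set, made by the authors with RMA per the submitters' processing notes (version not given in the sources used here). RMA corrects background, makes the distributions of all arrays equal and sums the probes of a set, so a shift of all genes on an array cannot be seen. The table held 22277 probe sets, 19064 of them with 1 symbol in the platform annotation. Those with several symbols (1043), none (2108) or control function (62) were left out of the tests. For each of 11963 genes the set with the highest mean over 30 arrays was used. Array medians ran from 7.15 to 7.21.

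One fit of 10 group means on 30 arrays was made in limma 3.58.1 (R 4.3.3), two-sided, with Benjamini-Hochberg adjustment over all genes and a threshold of 0.05. "Called", "higher" and "lower" for single genes refer to it where an adjusted p or a count of calls is given. Named genes are the 15 largest differences in each direction among called genes with no overlap between the arrays and a higher group mean above the table median. Up to 6 called members of each of 35 gene lists, or the member with the largest difference, were added, and 6 genes per test between doses or times with calls. The members and lists were chosen with earlier results of these data known. Each list is described by counts and a median, without a test. The fit was tested on simulated data. Deviations from the group means had correlations of 0.12, -0.12 and 0.09 between MWCNT and TiO2 arrays of the same replicate number. Between arrays of different numbers they ran from -0.21 to 0.14. With 3 arrays in each group this cannot settle whether the numbers pair the samples, and the main fit used no pairing. Positions and bases come from a RefSeq table (GRCh38.p14). Python 3.11.15 and matplotlib 3.10.9 drew the figures.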

Additional observations from a re-analysis of the deposited data

Results flagged for a closer look

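For these genes the difference between the particles was not the same at 10 and 100 ug/ml, by limma's test of the contrast between the doses (MWCNT minus TiO2 at 10, minus the same at 100). The contrast was 0.92 for ABCC3 (adjusted p = 1.12e-07), 1.35 for IER3 (adjusted p = 1.25e-07), 1.26 for ETV5 (adjusted p = 9.03e-06) and 0.90 for LBH (adjusted p = 5.12e-05). It was 0.53 for TGFBI and 0.90 for SPRED2 (adjusted p = 0.000182 for both), 0.78 for CCN2 (adjusted p = 0.000203) and 1.27 for DUSP6 (adjusted p = 0.000706). JUNB had 0.97 (adjusted p = 0.00399) and TIPARP 0.61 (adjusted p = 0.0117). Of these 10, only CCN2 was called at 10 ug/ml. On the second probe set the contrast was -0.0036 for SPRED2 and 0.19 for ETV5, neither of which passed, and 0.47 for ABCC3 (adjusted p = 0.0339). The search for single outlying arrays needs larger groups than 3 and was not run.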

How the results depend on the processing

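The 584 calls between the particles (245 higher with MWCNT, 339 lower) became 7 (0 and 7) with only the 6 arrays, 357 (87 and 270) with the 15 arrays of 24 h, 206 (43 and 163) after cyclic loess, 1284 (667 and 617) with array weights and 100 (44 and 56) with the probe set ranked second, which 4310 genes have. Centring on brighter genes gave 784 (24 and 760), testing only brighter genes 390 (321 and 69), and cyclic loess with brighter genes only, an alternative chosen after seeing the data, 74 (9 and 65). Of the calls, 5 exceeded 1.5-fold. With the replicate number as a block there were 625 calls on all 30 arrays (262 and 363), of which 520 were among the 584, and 0 on the 6 arrays, with 2574 at an unadjusted p under 0.05. Without single replicates the count ran from 20 to 798, higher genes from 4 to 371 and lower genes from 16 to 516. The highest count of higher genes came without the first control replicate, also chosen after seeing the data. The contrast between doses gave 34 calls, 15 with the arrays of 24 h, 115 with array weights, 6 with the second probe set, 52 after loess on brighter genes, and 21 to 46 without single replicates. The change between times gave 0 calls, 11 with array weights, and 1 each with brighter genes only, with a trended variance and after loess on brighter genes, and 0 to 2 without single replicates. With the second probe set the sign turned for ALDH5A1 (-0.22), DOHH (-0.034), URB1 (-0.074), CYP2D6 (0.024), MUC5AC (0.062), MVK (0.10), RPLP2 (0.071), WNT6 (0.024) and the dose contrast of SPRED2 (-0.0036). Beyond what a setting itself removes (arrays, genes or trends), the cause of these changes was not tested. Dim probe sets and 3 arrays a group limit the precision.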
